A study of Homo sapiens with 60 samples.

Results

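Dried ginger, the rhizome of Zingiber officinale sold as Zingiberis Rhizoma, was compared with Scutellariae Radix, the root of Scutellaria baicalensis, as ethanol extracts on A549 cells, a human lung carcinoma line of alveolar epithelial origin that carries a KEAP1 mutation. The comparison rests on 6 of the 60 libraries, which are 3 of dried ginger at 500 µg/mL and 3 of Scutellaria at 190 µg/mL, all taken at 24 hours. These were the highest concentrations of each extract. Per the series text, an extract whose IC20 lay under 500 µg/mL was used at that IC20 and at dilutions of it, so the concentrations differ and the nature of an extract cannot be told apart from its concentration. Another 6 libraries held the medium doses (100 µg/mL of dried ginger and 38 of Scutellaria), 6 the low doses (20 and 7.6 µg/mL), and 3 the DMSO vehicle. How much DMSO the vehicle held is stated differently in the labels and in the design text. All dried ginger libraries carry the number 9 and all Scutellaria libraries the number 10 in their labels, so at the high dose a difference between those sets cannot be told apart from the extract. The low doses of the same sets served as the check. The vehicle libraries carry neither number, so a set difference cannot be told apart from an extract's difference from the vehicle either. The labels do not say whether the 3 libraries of a group came from separate cultures, and p-values then measure only the spread between these libraries.

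Several of the gene groups below have well known control. The aryl hydrocarbon receptor (AhR) is activated by planar aromatic compounds, many of them from plants, and induces the CYP1 enzymes together with its own repressors. SREBP2 and SREBP1 raise the genes of cholesterol and fatty acid synthesis when sterols are low in the endoplasmic reticulum, and INSIG1 holds them back when sterols are plentiful. ATF4 is translated when the kinases of the integrated stress response are active and raises amino acid supply and the pro-apoptotic factor DDIT3. The NR4A receptors and the FOS family are immediate early genes, whose transcripts appear quickly after cAMP or calcium signals and are short-lived.

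In the 6 libraries, the totals lay between 22.02 and 38.54 M counts (M, mega). The lowest total among the 21 libraries fitted together was 20.11 M. Mitochondrial transcripts took 8.29 to 11.25% of counts in those 21. Of 14 genes that mark A549 cells, 13 were tested and their summed level was 17200 to 17800 CPM (counts scaled to each library's size) with dried ginger and 19900 to 20700 with Scutellaria, with 2 members higher and 6 lower. KRT8 and KRT18, keratins of simple epithelia, were among the lower members (-0.53 and -0.55 in log2), as was the membrane protein gene TM4SF1 (-0.79). Of other cell types, 7 endothelial genes summed to at most 0.568 CPM in any of the 21 libraries, and 7 fibroblast genes to 20.6 to 21.7 CPM with dried ginger and 22.7 to 25.3 with Scutellaria. COL1A1 made up most of the fibroblast sum, at 18.6 to 34.1 CPM over the 21 libraries. COL1A2, DCN and PDGFRB did not exceed 0.0812, 0.148 and 0.306 CPM.

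Of 16576 genes tested, 2673 (16.1%) differed between dried ginger and Scutellaria at the high dose (edgeR quasi-likelihood test, adjusted p under 0.05). They split almost evenly, with 1318 genes (7.95%) higher with dried ginger and 1355 (8.17%) lower. Most differences were small: the median size among the called genes was 0.246 in log2, and only 100 genes (0.603%) were called at 2-fold or more. At the low doses 4 genes (0.0241%) were called in the same test, while 926 had an unadjusted p under 0.05. The median low-dose difference of the 2673 genes was 0.048 in size. The difference between the extracts' own changes from low to high dose, which cancels any constant offset between the sets, was called for 912 genes (5.5%), of which 422 (2.55%) were more positive with dried ginger and 490 (2.96%) less. Among the 2673 genes, 884 were called in this test too, and 2658 had the same sign in it. This test contains the high-dose difference itself, so the shared sign is largely built in and is not separate support. At the medium doses 541 genes (3.26%) differed.

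Against its own low dose, dried ginger raised 2936 genes (17.7%) and lowered 3057 (18.4%), and Scutellaria raised 2319 (14%) and lowered 2570 (15.5%). These comparisons share no library. In all, 3478 genes were called in both, which is 58% of the dried ginger genes and 71.1% of the Scutellaria genes, with 1569 higher in both, 1831 lower in both and 78 in opposite directions. Across all genes the log2 changes had a Pearson r of 0.423 and a Spearman rho of 0.562, a description over genes that are not independent. The 1318 genes higher with dried ginger at the high dose came from different patterns. In 457 of them dried ginger rose and Scutellaria was not called, in 251 both rose, in 243 Scutellaria fell and dried ginger was not called, in 243 neither change was called, in 98 both fell, and in 26 dried ginger rose while Scutellaria fell. Of the 1355 lower genes, 422 fell with dried ginger alone, 336 fell with both, 239 rose with Scutellaria alone, 193 were called in neither, 113 rose with both, 1 rose with dried ginger alone, and 51 fell with dried ginger while they rose with Scutellaria. "Alone" here means that the other extract's change was not called, which does not show that it was absent.

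**Figure D1:**
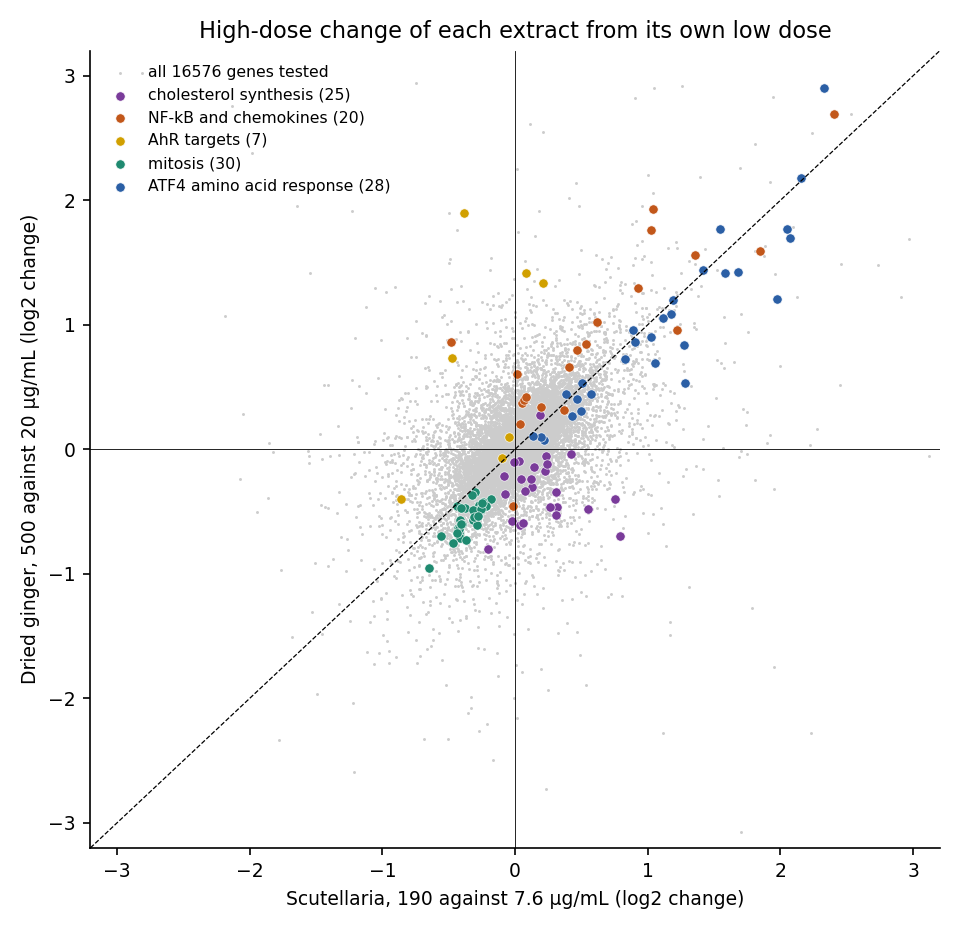
Log2 change of each gene from low to high dose, for Scutellaria on the horizontal axis (190 against 7.6 µg/mL, n = 3 and 3) and dried ginger on the vertical axis (500 against 20 µg/mL, n = 3 and 3). Grey points are all 16576 genes tested, of which 23 lie outside the axes, coloured points are 5 gene lists, and the dashed line marks equal change. The ATF4 genes lie along the line at the upper right and the mitosis genes below it at the lower left, while most cholesterol genes lie at the right and below 0 and 4 AhR targets lie well above the line.

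Of all the lists, the AhR targets had the largest median difference: 5 of 7 tested members were higher with dried ginger and none lower, and the median was 1.01 in log2 against -0.001 for all genes. CYP1A1, the xenobiotic-oxidizing cytochrome P450 that is the classical AhR target, stood at 5.66, 5.47 and 5.36 CPM with dried ginger and at 1.11, 0.919 and 0.809 with Scutellaria. The groups did not overlap, and Scutellaria lay about where the vehicle did (0.836, 0.786 and 1.04). The difference was 2.53 ± 0.17 (SE) in log2, with adjusted p = 5.83e-14. CYP1B1, which oxidizes estrogens and aromatic hydrocarbons, read 195, 195 and 204 CPM against 83, 87.2 and 89, a difference of 1.20 ± 0.04 (SE) with adjusted p = 4.88e-22. TIPARP, an ADP-ribosyltransferase that represses AhR, read 100.4, 103 and 112 against 49, 57.1 and 51.2 CPM (1.01 ± 0.05 (SE), adjusted p = 2.07e-18). AHRR, the receptor's dedicated repressor, read 5.7, 5.92 and 6.41 against 2.81, 3.06 and 2.73 (1.07 ± 0.13 (SE), adjusted p = 3.82e-08). Against the vehicle, the high dose of Scutellaria was called higher for CYP1B1 (0.61) and TIPARP (0.57), and dried ginger by more (1.81 and 1.58). CYP1B1 means at the low doses, 74.09 CPM with dried ginger and 81.61 with Scutellaria, also lay above the vehicle mean of 56.66. Between the low doses these 4 genes differed by 0.25, -0.14, -0.12 and -0.14 in the order described, and none was called. AHRR moved in opposite directions from the extracts' own low doses, by 0.74 with dried ginger and -0.47 with Scutellaria. With Scutellaria its mean was 3.968 CPM at the low dose and 2.865 at the high dose, against 2.733 in the vehicle. The high dose of Scutellaria was not called against the vehicle for this gene (0.07). ALDH3A1, an aldehyde dehydrogenase, was higher by 0.19, and NQO1, a quinone reductase that also answers to NRF2, was not called (0.05, adjusted p = 0.343). UGT1A6, a glucuronosyltransferase, was not called either (0.42, adjusted p = 0.408) at levels under 3 CPM, and CYP1A2 did not pass the filter on low counts. CYP1B1 and TIPARP were already higher with dried ginger at the medium doses, by 0.94 and 0.66.

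The promoters of 3 of these genes are shown because all 3 transcripts were higher with dried ginger. Each is the 250 bases before the gene's start on its own strand (RefSeq, GRCh38.p14), with every match to the AhR core motif GCGTG on either strand in capitals. Over 35116 promoters of 300 bases, 36.5% hold this motif, and 5 of the 6 listed genes matched in the table do. The windows are chr15:74725529-74725778 on the minus strand for CYP1A1, chr3:156674340-156674589 on the plus strand for TIPARP and chr5:321464-321713 on the plus strand for AHRR.
CYP1A1: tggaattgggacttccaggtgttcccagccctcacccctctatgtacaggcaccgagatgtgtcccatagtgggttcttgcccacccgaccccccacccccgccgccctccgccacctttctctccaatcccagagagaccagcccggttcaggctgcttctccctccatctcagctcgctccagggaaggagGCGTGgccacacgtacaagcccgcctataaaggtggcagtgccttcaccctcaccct
TIPARP: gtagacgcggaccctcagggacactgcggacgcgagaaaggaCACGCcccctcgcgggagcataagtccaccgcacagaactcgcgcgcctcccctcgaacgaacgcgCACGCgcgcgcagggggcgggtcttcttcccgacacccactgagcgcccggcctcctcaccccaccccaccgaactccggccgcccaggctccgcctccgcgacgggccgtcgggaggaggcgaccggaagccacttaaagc
AHRR: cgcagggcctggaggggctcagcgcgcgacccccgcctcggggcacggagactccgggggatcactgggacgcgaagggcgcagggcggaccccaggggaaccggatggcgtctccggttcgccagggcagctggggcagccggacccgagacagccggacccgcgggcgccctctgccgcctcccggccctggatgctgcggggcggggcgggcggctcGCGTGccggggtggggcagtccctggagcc
The match begins 57 bases before the start in CYP1A1 and 30 in AHRR, and TIPARP has matches at 208 and 142. A match describes the letters only.

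In cholesterol synthesis, 22 of 25 genes were lower with dried ginger, none was higher, and the median was -0.462 against -0.001 for all genes. The extracts moved the list in opposite directions: 20 members fell and none rose with dried ginger from its low dose (median -0.335), while 13 rose and 1 fell with Scutellaria (median 0.143). No member was called between the low doses, and 21 of 25 were called lower in the difference of the changes. INSIG1, which retains SREBP in the endoplasmic reticulum, read 27.8, 27.9 and 27.7 CPM with dried ginger, 56.8, 59.5 and 56.2 with Scutellaria and 35.4, 38.2 and 36.7 with vehicle. Every dried ginger library lay below every vehicle library, and every Scutellaria library above them. The difference was -1.05 ± 0.05 (SE) in log2 with adjusted p = 3.7e-18. STARD4, a sterol carrier, read 23.2, 21.9 and 22.4 against 42.5, 46.7 and 42.5 (-0.96 ± 0.05 (SE), adjusted p = 1.74e-16). Both genes fell with dried ginger and rose with Scutellaria from the low doses, INSIG1 by log2 changes of -0.40 and 0.75 and STARD4 by -0.48 and 0.55.

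Among the enzymes, MVK (mevalonate kinase) differed by -0.88 ± 0.06 (SE) and LSS (lanosterol synthase) by -0.75 ± 0.05 (SE), and both moved in opposite directions with the extracts. HMGCS1, which makes the HMG-CoA that enters the mevalonate pathway, read 129.5, 133 and 141 against 214, 221 and 211 CPM, a difference of -0.68 ± 0.04 (SE) with adjusted p = 1.67e-15. Its Scutellaria level lay near the vehicle (208, 213 and 195), and its change with Scutellaria was not called (0.03). MSMO1, a sterol methyl oxidase, rose by 0.42 with Scutellaria and was not called with dried ginger (-0.03). The members not called between the extracts included TM7SF2 (0.02) and SC5D (-0.12), enzymes of late sterol conversion. SREBF2, which encodes SREBP2, differed by -0.38 (adjusted p = 4.06e-10).

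**Figure D2:**
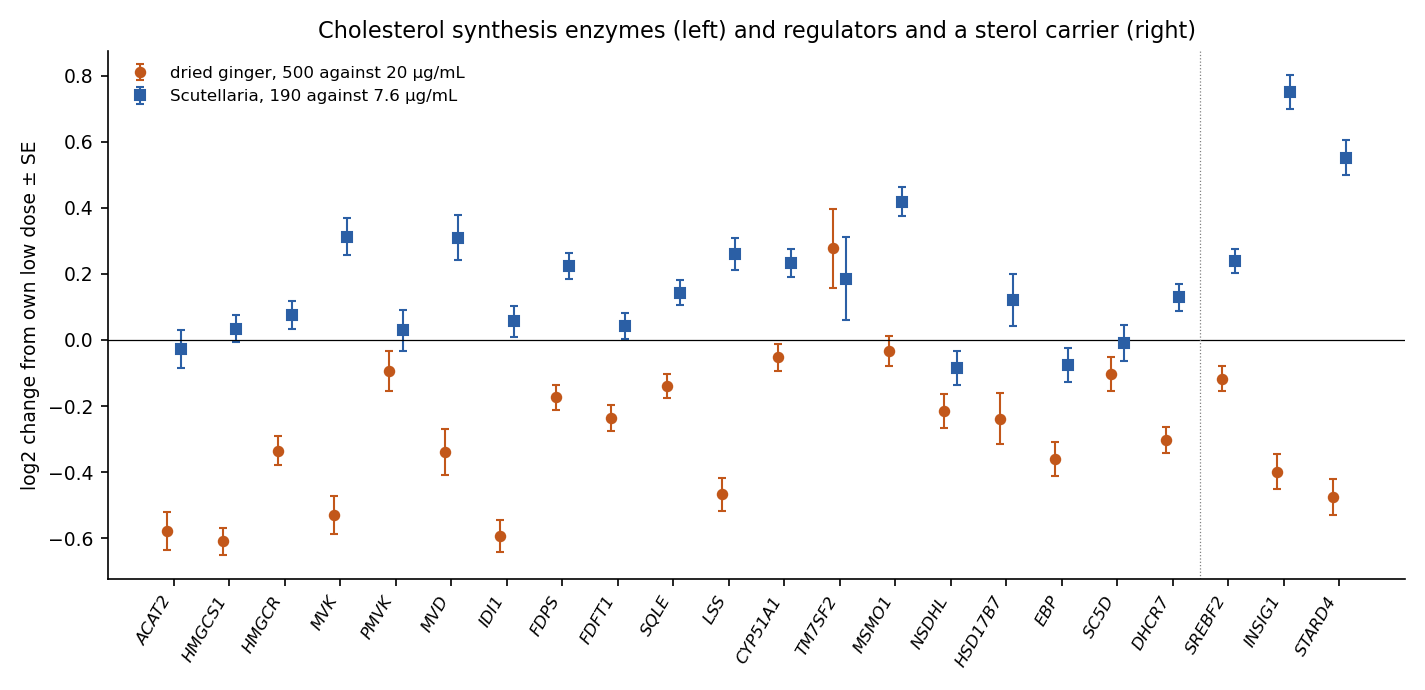
Log2 change from low to high dose, with its standard error, for 22 of the 25 genes of the cholesterol list: 19 synthesis enzymes in pathway order on the left of the dotted line and regulators and a sterol carrier on the right. Circles are dried ginger (500 against 20 µg/mL) and squares Scutellaria (190 against 7.6 µg/mL), each from 3 and 3 libraries. The circles lie below the squares for every gene drawn except TM7SF2, with the widest gaps among them at INSIG1 and STARD4.

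Fatty acid synthesis followed with 10 of 14 tested genes lower, 1 higher and a median of -0.300. SCD, the desaturase that makes oleate, read 814, 828 and 845 CPM with dried ginger and 1508, 1594 and 1468 with Scutellaria, a difference of -0.88 ± 0.04 (SE) (adjusted p = 3.35e-20). The vehicle libraries lay between them, at 969.8, 965 and 914. FADS2, the first desaturase of polyunsaturated fatty acids, differed by -0.67 ± 0.03 (SE), FASN by -0.46 ± 0.05 (SE) and SREBF1 by -0.45 ± 0.04 (SE). SCD, FADS2 and SREBF1 fell with dried ginger and rose with Scutellaria, and FASN fell with dried ginger (-0.40) without a call for Scutellaria (0.05). The lipid droplet and fatty acid oxidation list went the other way, with 4 of 13 tested genes higher and none lower. The 4 higher genes were PLIN2, a droplet coat protein (0.45), ANGPTL4, a lipase inhibitor (0.47), CPT1A, which admits fatty acids to mitochondria (0.43), and ACADVL, an acyl-CoA dehydrogenase (0.26).

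The promoters of MVK, STARD4 and INSIG1 are shown because these genes moved in opposite directions with the extracts. SREBP commonly acts beside the factor NF-Y, whose box is CCAAT, and matches to CCAAT on either strand are in capitals. This motif occurs in 34.6% of the 35116 promoters and in 15 of the 18 cholesterol genes matched in the table. The longer SREBP motif TCACNCCAC occurs in 1.13% of promoters and in 1 of those 18, SREBF2. The windows are chr12:109573544-109573793 on the plus strand for MVK, chr5:111512536-111512785 on the minus strand for STARD4 and chr7:155297628-155297877 on the plus strand for INSIG1.
MVK: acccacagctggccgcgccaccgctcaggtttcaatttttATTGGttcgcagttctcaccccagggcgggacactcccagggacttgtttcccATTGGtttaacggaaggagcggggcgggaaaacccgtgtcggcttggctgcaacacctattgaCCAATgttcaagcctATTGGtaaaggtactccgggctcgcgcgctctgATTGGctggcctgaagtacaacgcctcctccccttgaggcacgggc
STARD4: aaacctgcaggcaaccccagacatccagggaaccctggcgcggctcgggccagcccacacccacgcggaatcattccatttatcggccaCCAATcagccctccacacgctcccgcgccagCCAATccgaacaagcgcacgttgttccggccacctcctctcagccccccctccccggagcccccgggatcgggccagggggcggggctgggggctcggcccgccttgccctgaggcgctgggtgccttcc
INSIG1: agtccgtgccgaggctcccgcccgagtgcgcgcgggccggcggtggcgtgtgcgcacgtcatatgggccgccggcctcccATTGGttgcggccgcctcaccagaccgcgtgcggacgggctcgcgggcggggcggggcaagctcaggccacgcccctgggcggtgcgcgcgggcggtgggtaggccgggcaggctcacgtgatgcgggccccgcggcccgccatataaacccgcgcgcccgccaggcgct
MVK has 5 matches, STARD4 2 and INSIG1 1.

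The NR4A receptors and FOS genes were lower with dried ginger than with Scutellaria. NR4A1, an orphan nuclear receptor on chromosome 12, read 10.8, 10.7 and 10.1 CPM with dried ginger and 39.7, 38.5 and 37.3 with Scutellaria. The Scutellaria libraries lay at the vehicle level (38.1, 37.5 and 40.03), and the medium dose of dried ginger lay between (22.1, 21.8 and 22.4). The difference was -1.88 ± 0.06 (SE) with adjusted p = 6.08e-24. NR4A3 read 1.82, 1.42 and 1.97 against 7.02, 6.96 and 7.71 CPM (-2.02 ± 0.12 (SE), adjusted p = 1.26e-15), and NR4A2 read 2.61, 2.14 and 1.48 against 3.66, 4.9 and 4.22 (-1.08 ± 0.16 (SE), adjusted p = 2.01e-06). From the low dose, NR4A1, NR4A2 and NR4A3 all fell with dried ginger (log2 changes of -1.73, -1.01 and -2.08), and with Scutellaria only NR4A3 was called (-0.33). FOS and FOSB, partners of JUN in the AP-1 factor, differed in the same direction, FOS by -1.17 ± 0.15 (SE) and FOSB by -1.89 ± 0.27 (SE). FOSB fell with dried ginger (-1.18) and rose with Scutellaria (0.81), at levels of only 0.435, 0.756 and 0.613 and 1.83, 2.23 and 2.64 CPM. JUN and FOSL1, other AP-1 members, were instead higher with dried ginger, by 0.41 and 0.63. Over the immediate early list, 10 of 18 tested genes were lower and 3 higher, with a median of -0.387. EGR1, a zinc finger factor, differed by -1.20 ± 0.22 (SE) (adjusted p = 0.000108).

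The promoters of NR4A3 and FOSB are shown because they had the 2 largest deficits with dried ginger among the immediate early genes in the promoter table. Capitals mark TGACG, the core of the cAMP response element, on either strand. It occurs in 24.6% of the 35116 promoters and in 10 of the 15 listed genes matched. The windows are chr9:99821635-99821884 for NR4A3 and chr19:45467746-45467995 for FOSB, both on the plus strand.
NR4A3: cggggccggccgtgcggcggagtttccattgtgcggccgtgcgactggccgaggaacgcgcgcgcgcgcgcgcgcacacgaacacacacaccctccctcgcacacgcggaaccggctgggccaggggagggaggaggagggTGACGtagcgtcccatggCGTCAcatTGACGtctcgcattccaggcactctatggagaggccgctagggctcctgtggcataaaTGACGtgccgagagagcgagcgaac
FOSB: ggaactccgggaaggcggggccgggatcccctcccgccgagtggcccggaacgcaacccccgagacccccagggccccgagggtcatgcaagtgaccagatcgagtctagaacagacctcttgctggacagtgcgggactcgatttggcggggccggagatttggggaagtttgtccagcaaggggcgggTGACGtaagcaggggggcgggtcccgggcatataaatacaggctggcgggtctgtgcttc
NR4A3 has 4 matches and FOSB 1. The NR4A1 window, not shown, has none.

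Above a mean level of 5 CPM, large deficits with dried ginger besides NR4A1 were in KRT4, the fibrinogen chains and H19. KRT4, a keratin of stratified mucosa that lies on chromosome 12, read 5.23, 5.43 and 6.05 CPM with dried ginger, 22.3, 20.4 and 20.4 with Scutellaria and 28, 28.9 and 30.2 with vehicle (-1.90 ± 0.08 (SE), adjusted p = 2.23e-20). It fell with both extracts from the low dose, with log2 changes of -2.32 and -0.69. FGB, FGA and FGG encode the 3 chains of the clotting protein fibrinogen and lie beside each other on chromosome 4. FGB read 46.7, 42.8 and 48 CPM against 135, 131 and 133 (-1.53 ± 0.05 (SE), adjusted p = 1.29e-24). FGA differed by -1.22 ± 0.05 (SE) and FGG by -1.06 ± 0.07 (SE). FGB, FGA and FGG fell with dried ginger (log2 changes of -1.89, -1.69 and -1.37) and with Scutellaria (-0.52, -0.55 and -0.42). The difference of these changes was called for each, at -1.38, -1.15 and -0.95. The chains were the 3 lower members of the 9 tested acute-phase genes, none of which was higher. H19, an imprinted long noncoding RNA, read 13.4, 15.8 and 14.2 against 40.9, 36 and 40.2 CPM and 83.9, 79.7 and 94 in the vehicle (-1.44 ± 0.07 (SE), adjusted p = 1.16e-14). Other leading genes were SLC2A3, a glucose transporter (-1.06), INSL4, an insulin-like peptide (-1.10), and SAMD11 (-1.08).

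**Figure D3:**
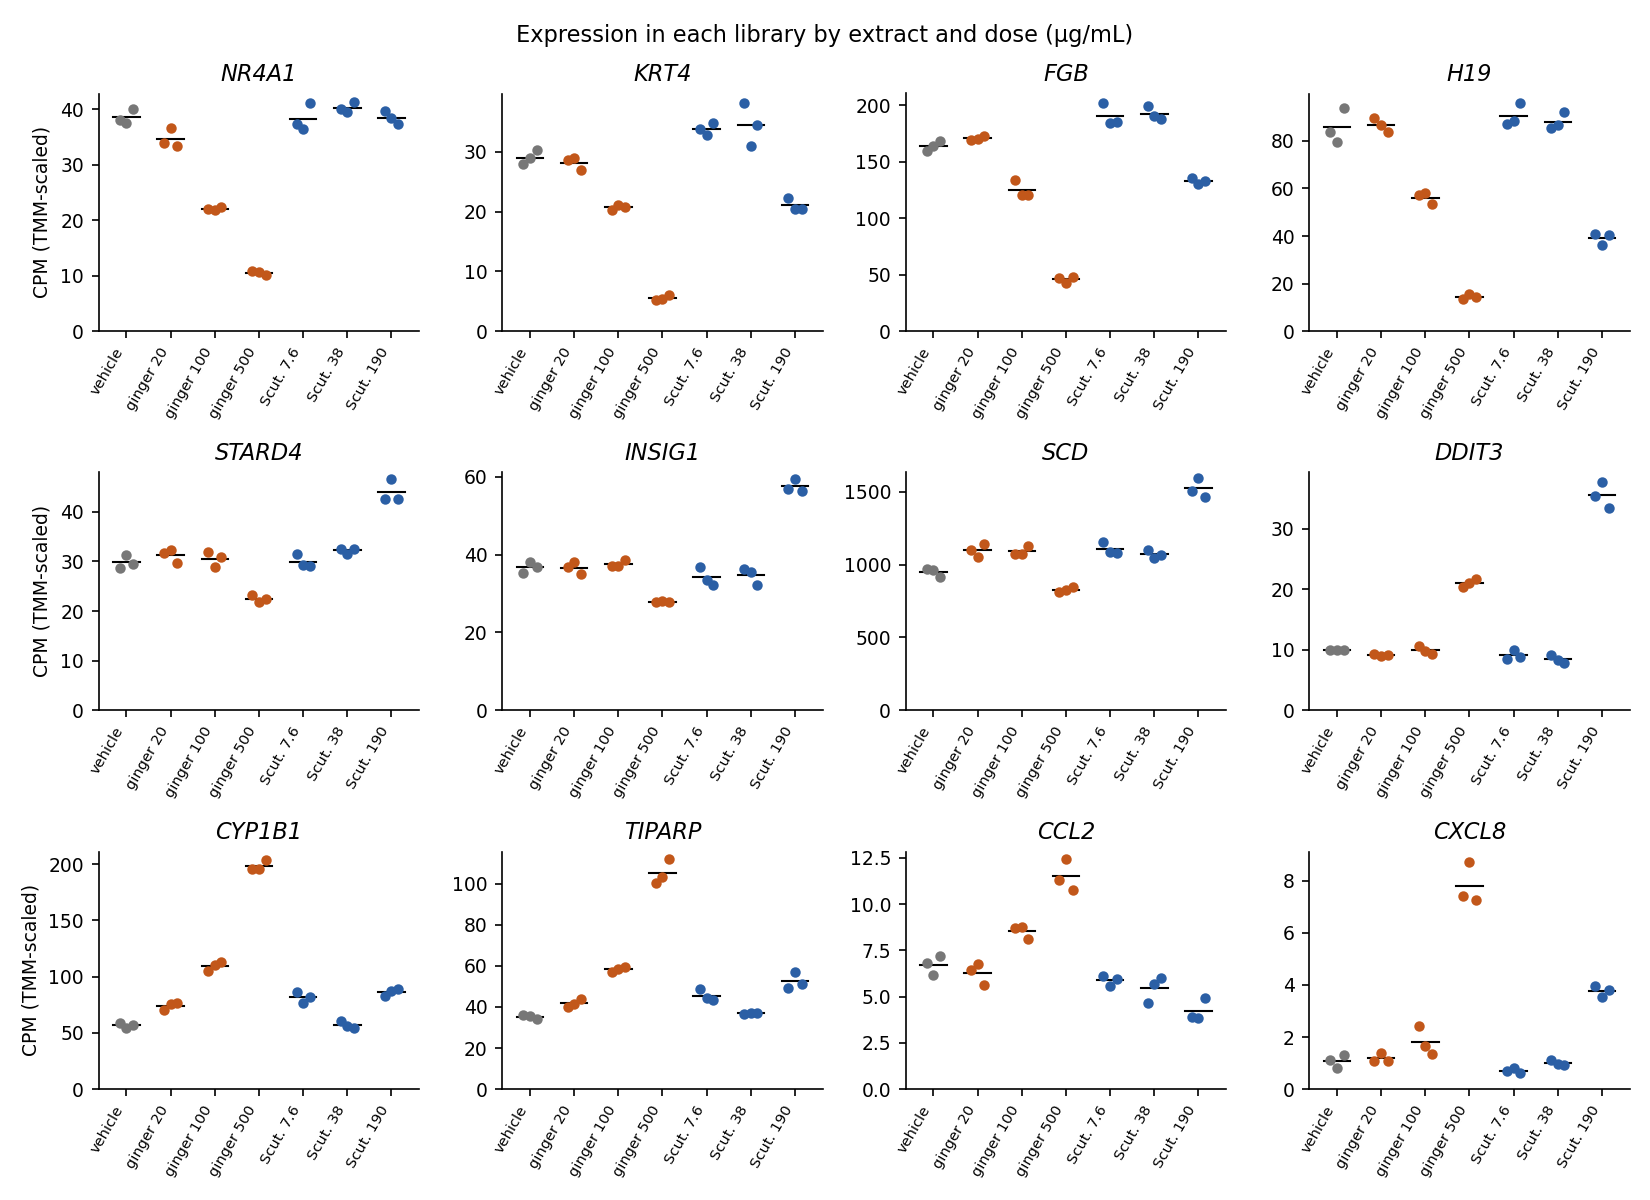
Expression in CPM, scaled between libraries by TMM, for 12 genes in each of the 21 libraries, with 3 points per group and a black line at the mean. Groups run from the vehicle through dried ginger at 20, 100 and 500 µg/mL to Scutellaria at 7.6, 38 and 190 µg/mL, and each vertical axis starts at 0. NR4A1, KRT4, FGB and H19 are lowest at 500 µg/mL of dried ginger, STARD4, INSIG1, SCD and DDIT3 are highest at 190 µg/mL of Scutellaria, and CYP1B1, TIPARP, CCL2 and CXCL8 are highest at 500 µg/mL of dried ginger.

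Inflammatory genes were mostly higher with dried ginger: 15 of 20 tested NF-kB and chemokine genes were higher and 1 lower, with a median of 0.352. In the difference of the changes 9 were called higher and 1 lower. The list members TNF, IL6, IL1A, IL1B and CXCL6 did not pass the filter on low counts and were not tested. The list rose with both extracts from the low dose, in 19 members with dried ginger and 13 with Scutellaria, and 1 member fell in each. CCL2, a monocyte attractant, departed from that rise. It read 11.3, 12.4 and 10.8 CPM with dried ginger, 3.91, 3.85 and 4.9 with Scutellaria and 6.83, 6.19 and 7.18 with vehicle, so that the groups lay on either side of the vehicle (1.44 ± 0.11 (SE), adjusted p = 4.21e-13). It rose by 0.86 with dried ginger and fell by 0.48 with Scutellaria in log2. CXCL8, which attracts neutrophils, read 7.4, 8.72 and 7.25 against 3.96, 3.54 and 3.79 CPM (1.04 ± 0.14 (SE), adjusted p = 5.13e-07). Its low-dose difference was 0.75 (adjusted p = 0.672), at 1.1, 1.38 and 1.09 against 0.681, 0.811 and 0.634 CPM, and the difference of its changes was not called (0.29, adjusted p = 0.715). CXCL1, another neutrophil attractant, differed by 1.16 ± 0.18 (SE), at low means of 4.79 against 2.122 CPM. ICAM1, a leukocyte adhesion molecule, differed by 0.86 ± 0.18 (SE), at 2.988 against 1.633 CPM. For these 2 genes the difference of the changes was not called either. NFKBIA and TNFAIP3, the inhibitors that NF-kB itself induces, were higher by 0.36 and 0.54 and rose with dried ginger (0.39 and 0.61), while their changes with Scutellaria were not called (0.06 and 0.02). For both, the difference of the changes was called, at 0.33 and 0.59.

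The prostaglandin genes moved in crossed directions. PTGES, the terminal synthase of prostaglandin E, read 26.5, 25.4 and 24.9 CPM with dried ginger and 14.2, 14 and 15.1 with Scutellaria (0.82 ± 0.07 (SE), adjusted p = 3.22e-12). It rose by 0.56 with dried ginger and fell by 0.28 with Scutellaria. PTGS2, the inducible cyclooxygenase upstream of it, did the reverse, at 18, 18.1 and 20.1 against 34, 39 and 32.5 CPM (-0.90 ± 0.07 (SE), adjusted p = 6.61e-11). It fell by 0.45 with dried ginger and rose by 0.52 with Scutellaria. The other genes picked for opposite changes were ARSI, an arylsulfatase, the carboxypeptidase M gene and SYNGR1, a vesicle protein, all higher with dried ginger, by 0.74, 0.55 and 0.50.

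Other genes led the higher side. GREM1, a secreted antagonist of bone morphogenetic proteins, read 21.7, 21.8 and 20.8 CPM against 10.1, 10.6 and 10.7 and 5.26, 4.88 and 5.13 in the vehicle (1.03 ± 0.08 (SE), adjusted p = 7.07e-13), and it rose with both extracts, by 1.81 and 0.88. CDCP1, a transmembrane Src substrate, likewise rose with both, by 2.05 and 1.04, and was higher with dried ginger by 0.98. VDR, the vitamin D receptor (1.01), TNFRSF11A, the receptor RANK (0.83), and ADGRF4, an adhesion G protein-coupled receptor (0.97), completed the group. CD68, a lysosomal glycoprotein abundant in macrophages, read 16.6, 15.9 and 17 CPM against 5.11, 8.14 and 7.75 (1.24 ± 0.11 (SE), adjusted p = 1.16e-10). The 7 immune markers summed to 18.5 to 19.4 CPM with dried ginger and 7.15 to 10.4 with Scutellaria, and CD68 made up most of that sum. PTPRC, the pan-leukocyte marker, did not exceed 0.0487 CPM in any of these libraries and CD3E was at 0. The part of other cells in these results was not tested, and in bulk RNA fewer cells of a type cannot be told apart from less RNA per cell.

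Targets of ATF4 rose with both extracts. From the low dose, 27 of 28 ATF4 targets rose with each extract, with medians of 0.88 for dried ginger and 1.08 for Scutellaria in log2. Between the extracts 11 were lower with dried ginger and 2 higher, and the median was -0.104. The difference of the changes was called lower for 5 and higher for 1. At the medium doses the list stood the other way, with 6 members higher with dried ginger, 1 lower and a median of 0.084. DDIT3 (CHOP), a pro-apoptotic factor, read 20.4, 21 and 21.7 CPM with dried ginger, 35.4, 37.8 and 33.4 with Scutellaria and 9.93, 9.96 and 9.87 with vehicle. Both groups lay above the vehicle, and the difference was -0.76 ± 0.06 (SE) (adjusted p = 3.67e-12). ATF3, another stress-induced factor, differed by -0.72 ± 0.07 (SE), PPP1R15A (GADD34), which ends the stress response by promoting eIF2 dephosphorylation, by -0.50 ± 0.06 (SE), and TRIB3, an ATF4 feedback inhibitor, by -0.42 ± 0.04 (SE). ASNS (asparagine synthetase) and CHAC1 (a glutathione-degrading enzyme) were not called, at -0.06 and -0.13. NIBAN1 went against the list, at 76.8, 81.7 and 81.4 against 55.9, 62.2 and 56.9 CPM (0.46 ± 0.06 (SE), adjusted p = 8.57e-08).

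Folding genes of the endoplasmic reticulum were lower with dried ginger in 11 of 21 cases and higher in none (median -0.140). At the other doses the sign was the opposite: 4 were higher and none lower at the medium doses (median 0.096), and at the low doses 20 of 21 lay above 0 with none called (median 0.101). The difference of the changes was called lower for 10 and higher for none. From the low dose, dried ginger gave 8 higher and 6 lower, and Scutellaria 14 higher and 1 lower. Against the vehicle the extracts were closer, with 13 higher and 4 lower for dried ginger (median 0.200) and 15 and 2 for Scutellaria (median 0.298). HERPUD1, part of the degradation machinery of that organelle, read 54.9, 53.6 and 57.3 against 76.8, 80.3 and 78 CPM (-0.50 ± 0.04 (SE), adjusted p = 5.97e-12). The chaperone HSPA5 (BiP) differed by -0.16. MANF, a secreted folding factor, fell by 0.27 with dried ginger and rose by 0.16 with Scutellaria from the low dose. Its difference between dried ginger and the vehicle was not called (-0.12). Cytosolic heat shock genes showed the opposite sign: 13 of 20 were higher with dried ginger and none lower (median 0.156). They fell with both extracts, 18 of 20 in each, with medians of -0.353 for dried ginger and -0.522 for Scutellaria. HSPA1A, an inducible HSP70, read 212, 195 and 190.5 CPM, 138, 132 and 131 CPM and, in the vehicle, 335, 339.6 and 363 CPM (0.58 ± 0.05 (SE), adjusted p = 1.02e-10). HSPA1A and HSPA1B are near-identical copies, so the split of reads between them is uncertain. HSPA8, the constitutive HSP70, differed by 0.40 ± 0.03 (SE) and BAG3, its co-chaperone, by 0.41 ± 0.04 (SE).

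Mitosis genes fell with both extracts and stood lower with dried ginger. All 30 mitosis genes fell with dried ginger and 29 with Scutellaria, with medians of -0.537 and -0.347. Between the extracts 26 of 30 were lower with dried ginger, none was higher, and 19 were called lower in the difference of the changes. CCNB1 (cyclin B1) read 137, 133 and 140.5 CPM against 169, 159 and 164, with the vehicle at 239.9, 243 and 248 (-0.26 ± 0.04 (SE), adjusted p = 4.71e-06). PTTG1 (securin), the inhibitor of sister chromatid separation, differed by -0.43 ± 0.04 (SE) and KIF20A, a kinesin of cytokinesis, by -0.34 ± 0.04 (SE). DNA replication genes gave a less uniform picture, with 6 of 32 lower and 3 higher and a median of -0.034. TYMS and TK1, which supply thymidylate, differed by -0.29 and -0.28. Of 24 p53 targets, 9 were lower with dried ginger and none higher (median -0.124), and 4 were called lower in the difference of the changes. FDXR, an adrenodoxin reductase, differed by -0.41, DDB2, a DNA damage sensor, by -0.37, and CDKN1A (p21), a CDK inhibitor, by -0.26. CDKN1A rose with both extracts from the low dose, by 0.36 and 0.51. The difference of these changes was not called (-0.151, adjusted p = 0.15), and the low doses differed by -0.105 without a call.

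**Figure D4:**
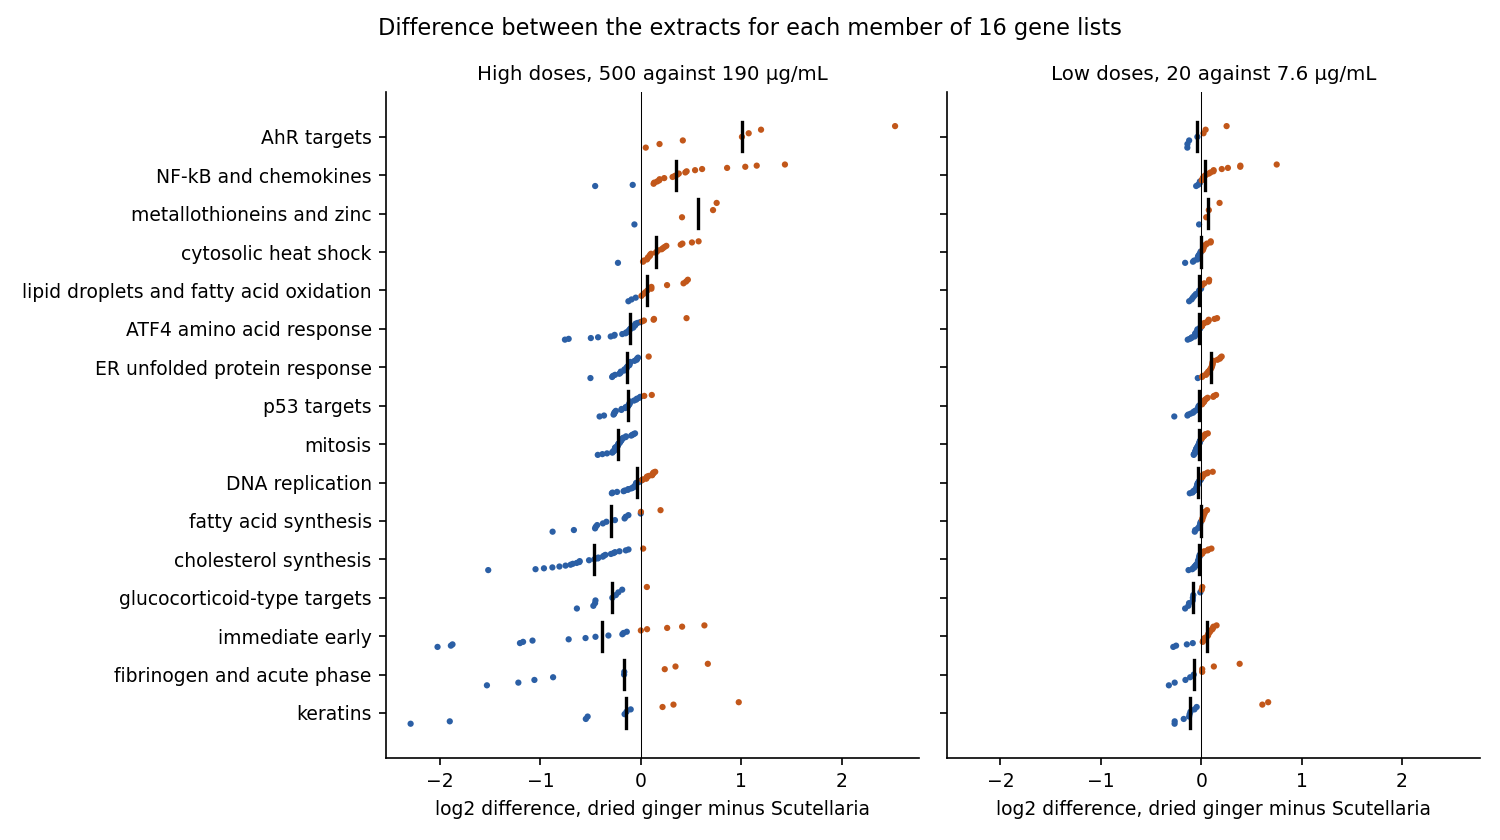
Log2 difference between dried ginger and Scutellaria for every tested member of 16 gene lists, at the high doses on the left and the low doses on the right (n = 3 and 3 in each). Each point is 1 gene, coloured by its sign, and black bars are list medians. At the high doses the cholesterol and mitosis points lie almost all left of 0 and the AhR, NF-kB and heat shock points mostly right of it, while at the low doses the medians lie near 0.

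Smaller lists differed through a few members. Of 9 glucocorticoid-type targets 6 were lower with dried ginger: TSC22D3 (GILZ), an anti-inflammatory leucine zipper protein, read 25.4, 23.5 and 22.8 against 36.2, 39.7 and 35.4 CPM (-0.64 ± 0.06 (SE), adjusted p = 7.02e-10). SGK1, a serum- and glucocorticoid-inducible kinase, differed by -0.47 ± 0.05 (SE) and DUSP1, a MAP kinase phosphatase, by -0.45 ± 0.04 (SE). Of 14 clock genes 5 were lower and 1 higher, and PER2 and BHLHE40, repressors of the clock, fell with dried ginger (-0.48 and -0.27) and rose with Scutellaria (0.17 and 0.36). Of 4 tested metallothionein and zinc genes 3 were higher, and none was called in the difference of the changes. MT2A, a metal-binding protein, differed by 0.76 ± 0.14 (SE); the smaller differences of MT1F and MT1X lost their calls without dried ginger library 2 or Scutellaria library 3, and without dried ginger library 1 or Scutellaria library 2, respectively (adjusted p from 0.0577 to 0.0894). Of 29 TGF-beta and matrix genes 11 were lower and 4 higher, with CCN2, a matricellular growth factor, at -0.57. In the 21 NRF2 targets 4 were higher and 5 lower. HMOX1, the heme oxygenase that NRF2 induces, read 211, 210 and 205 against 211, 215 and 216 CPM, and the difference of -0.04 was not called (adjusted p = 0.58). It rose with both extracts, by 0.46 with dried ginger and 0.50 with Scutellaria. Interferon genes (2 higher and 3 lower of 19), MAPK feedback genes (2 and 2 of 14) and iron and copper genes (2 and 3 of 12) leaned to neither side.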

How the data were processed

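The mRNA libraries of A549 cells were sequenced on an MGI instrument as paired reads, per the labels' protocols. The deposited values are expected counts per gene from RSEM 1.3.3 after FastQC 0.11.9, Trim Galore 0.6.5 and STAR 2.7.3a on GRCh38, per the submitters' processing notes. For their settings, strand handling and annotation release, nothing is given in the sources used here. The table holds 269 columns, of which 60 match the labels and 209 were not used.

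Expected counts were rounded, genes were kept by filterByExpr with a minimum count of 10, and TMM factors and the quasi-likelihood test of edgeR 4.0.16 in R 4.3.3 were applied to 21 libraries (7 groups of 3), giving 14 residual degrees of freedom. The p-values were adjusted by Benjamini-Hochberg over all 16576 genes, and a gene was called at 0.05. SE is the log2 difference divided by the square root of the F statistic. CPM carry no length correction, so levels are compared within a gene only. Symbols came from a gene name table, which named 41706 of 60675 identifiers.

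The comparison, the 38 gene lists and the rules for named genes were chosen with earlier results of these data known. Named genes were the 10 largest called differences in each direction at a mean of at least 5 CPM without overlap, up to 4 called members of each list with at least 3 called, the 5 largest opposite changes in each direction, and 10 genes followed throughout. Other list members named in the text were chosen after their values were seen. Alternatives were DESeq2 1.42.0, other size factors, no filter, other sets of libraries in the fit, a replicate block and leaving out each library. The test was checked on simulated data. Motif matches were searched by exact letters. Values of some list and leading genes are not reported here, although counts and medians include them.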

Additional observations from a re-analysis of the deposited data

Results flagged for a closer look

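The change from low to high dose differed between dried ginger and Scutellaria for 912 genes in the test of that difference (edgeR, adjusted p under 0.05). All 78 genes that were called in opposite directions in the extracts' own comparisons are among them. That follows largely from how the difference is formed, since opposite changes add up in it. Of the 146 named genes, 91 were called in this test, and 18 of those were also called in opposite directions. Some genes were named because they met both conditions, so these counts are not independent of the naming rule. The values of those of the 18 that are reported here follow. On the positive side dried ginger rose and Scutellaria fell from the low dose, although AHRR with Scutellaria was not called against the vehicle (0.07). The difference of the changes in log2 was 1.34 for CCL2, 1.21 for AHRR and 0.84 for PTGES. It was 0.76 for ARSI, 0.69 for the carboxypeptidase M gene and 0.67 for SYNGR1. On the negative side it was -1.99 for FOSB, -1.15 for INSIG1, -1.03 for STARD4, -0.97 for PTGS2, -0.87 for SCD and -0.84 for MVK. Smaller negative values were -0.66 for FADS2, -0.65 for PER2, -0.63 for BHLHE40, -0.47 for SREBF1 and -0.44 for MANF.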

How the results depend on the processing

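The count of genes that differ at the high dose was 2010 to 2429 when each library was left out in turn, and 2238 with DESeq2, against 2673. The count at the low dose was the one that moved by over 1.5 times: 4 genes became 34 without the filter on low counts, 1 with all 60 libraries in the fit, 7 with only the groups compared and 10 with DESeq2, and 3 to 5 on leaving out a library. The cause was not tested. The difference of the changes gave 700 to 934 genes on leaving out a library and 768 with DESeq2.

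Replicate numbers showed no pairing across the extracts at the high dose. Libraries of the same number there correlated at -0.014, -0.046 and -0.047 in their deviations. Between the high and low doses of Scutellaria, same-number pairs gave 0.044, 0.026 and 0.028. Different-number pairs of Scutellaria gave -0.024 to -0.002. With dried ginger, both kinds of pair had mixed signs between these doses. These small values do not settle whether the numbers pair libraries within an extract. With the replicate number as a block, 2709 genes differed at the high dose, 5 at the low dose and 899 in the difference of the changes.

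Of 146 named genes 145 were called. Most naming rules pick genes by their calls in these same data, so this count and the kept calls below are not separate support. Over the 1749 values recomputed for them under the alternatives, 1663 kept direction and call, 86 kept direction and lost the call, and 0 reversed. The lost calls were in 25 genes; among those described above they were MT2A (0.752 with only the groups compared, adjusted p = 0.0576), MT1F and MT1X. The 22 cholesterol genes and the 5 AhR targets were counted the same under every alternative.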

Other observations

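The 4 genes called at the low dose were all lower with dried ginger and were called at the high dose too. They are 7SK, the noncoding RNA that holds the elongation factor P-TEFb, and 3 identifiers without a symbol on chromosome 21. Levels of 7SK were low, with means of 0.437 CPM with dried ginger and 1.617 with Scutellaria at the low dose. At the high dose the 7SK means were 0.58 and 1.4 CPM. For ENSG00000280614 the mean was 270.9 ± 20.9 CPM (SD, n = 3) with dried ginger and 836.5 ± 81.2 with Scutellaria at the low dose, and 256 ± 29.7 against 722.9 ± 83.8 at the high dose. ENSG00000281181 had the same means, so that the reads of the copies cannot be told apart. The vehicle mean for ENSG00000280614 was 731.5 ± 98.2 CPM, near the Scutellaria values. This offset was -1.63 at the low dose and -1.50 at the high dose in log2, and the difference of the changes was not called (0.127, adjusted p = 0.809).

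Ribosomal protein genes leaned to dried ginger by small amounts, with 8 of 35 higher, none lower and a median of 0.047 in log2, and 2 were called higher in the difference of the changes. Of 31 nuclear-encoded respiratory chain subunits 7 were lower and none higher, with a median of -0.035. Much of this stood at the low doses too, where the median was -0.021 and 9 of 31 lay above 0, and none of the 31 was called in the difference of the changes. Without Scutellaria library 1, NDUFV1, NDUFA9 and NDUFB5 lost their calls (adjusted p of 0.0929, 0.0601 and 0.147). NDUFA9 and NDUFB5 also lost them without dried ginger library 1 (0.0625 and 0.063) or 2 (0.0738 and 0.0787), and NDUFB5 without Scutellaria library 2 (0.0815). Aminoacyl-tRNA synthetases gave 4 of 18 lower and none higher, with AARS1 at -0.18 and SARS1 at -0.14 and a median of -0.064. At the low doses the median was -0.037 and 2 of 18 lay above 0, and the difference of the changes was called for none (adjusted p = 0.0695 for AARS1 and 0.0922 for SARS1). From the low dose, 11 of 18 rose with each extract. Among 33 hypoxia and glycolysis genes 11 were lower and 6 higher with dried ginger, and 3 and 4 in the difference of the changes. HK2, a hexokinase, was higher by 0.63, at means of 3.794 against 2.467 CPM. The difference of its changes was not called (0.71, adjusted p = 0.0794). ADM, adrenomedullin, differed by -0.38 between the high doses. In the lysosome and autophagy list SQSTM1, the autophagy receptor p62, was higher by 0.47 and CTSL, a cathepsin, by 0.37. Of its 20 members 3 were higher and 1 lower, beside 7.95% higher and 8.17% lower over all genes tested. The list median was 0.024 and 10 of 20 lay above 0, so the list as a whole leaned to neither side.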
